A study of Canis lupus familiaris with 4 samples.

Results

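CMT-U27 is a cell line derived from a canine mammary cancer. Its stem-like cells, sorted for the surface proteins Sca1, EpCAM and CD44, were grown for 3 days together with tumour-associated macrophages or by themselves, and the RNA of both cultures was set against each other on 2-colour gene expression arrays. The arrays described here are the 2 whose cell line label reads CMT-U27, out of 4 arrays in all. The other 2 hold stem-like cells of P114, a second canine mammary cancer line, sorted, cultured and hybridised in the same way. Each array held both cultures of its line in different dyes. On CMT-U27 replicate 1 the co-culture was labelled with Cy5 and the single culture with Cy3, and on replicate 2 these dyes were exchanged. Ratios are co-culture divided by single culture, with the direction taken from the label of each channel, so a positive log2 ratio means a brighter spot in co-culture. Record titles name only the culture of the first channel, and if the dye labels of the CMT-U27 records had been exchanged, every CMT-U27 ratio would have the opposite sign. Where the macrophages came from, how many were added and whether they were removed before RNA extraction are not given in the sources used here. In such bulk RNA, fewer cells of a type and less RNA per cell cannot be told apart. Whether the exchanged-dye arrays were made from separate cultures or from the same RNA is not stated, so the spread behind the p-values may be technical. The fit of all 4 arrays holds a dye term for each probe. Its residual spread is therefore how far the gap between the dyes differs between the 2 lines. A gap between the CMT-U27 arrays that P114 shares by dye does not enter it, so a small p-value does not mean that these arrays agreed.

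Macrophages that enter a tumour release cytokines to which epithelial cells respond. In the NF-kB pathway such a signal frees transcription factors of the Rel family from their inhibitor IkB-alpha, and these switch on chemokine genes, adhesion molecules and the inhibitor itself, which closes the loop. CC chemokines such as CCL2 draw monocytes, CXC chemokines such as IL8 draw neutrophils, and interferon-gamma raises the genes of antigen presentation through the transactivator CIITA. Serum amyloid A is an acute-phase protein of the liver that epithelia also make, and it is known as a mammary form in milk.

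The probes of the array are DNA oligonucleotides of 60 bases. Those below are shown because the largest ratios rest on them, and because pairs of them read the same stretch of a gene on opposite strands. They are given 5′ to 3′ as listed in the scanner files, with their places on the canine assembly CanFam3.1. The first SAA1 probe, A_11_P0000025562, lies at chr21:40629375-40629434 on the minus strand and gave the largest ratio of all tested genes in the processing used here.
SAA1 A_11_P0000025562: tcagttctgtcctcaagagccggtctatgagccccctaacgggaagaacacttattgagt
The next 3 are related SAA1 probes, at chr21:40665919-40666361 (plus), chr21:40647637-40648079 (minus) and chr21:40665915-40666357 (minus). Capitals mark a run of 56 bases that probe A_11_P143758 holds as the reverse complement of A_11_P051191, and in A_11_P055261 a run of 42 bases shared with A_11_P051191.
SAA1 A_11_P051191: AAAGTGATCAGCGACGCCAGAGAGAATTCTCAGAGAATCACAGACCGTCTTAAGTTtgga
SAA1 A_11_P055261: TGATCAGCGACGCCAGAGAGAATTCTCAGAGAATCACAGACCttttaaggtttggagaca
SAA1 A_11_P143758: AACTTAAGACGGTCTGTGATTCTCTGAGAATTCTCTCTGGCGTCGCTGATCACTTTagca
The chemokine probes of CCL4 at chr9:37681345-37681404 (minus), CCL20 at chr25:40508815-40508874 (plus) and CCL8 at chr9:38949243-38949726 (minus) were the only tested probes of these genes, so no second probe stands beside their ratios.
CCL4 A_11_P0000020101: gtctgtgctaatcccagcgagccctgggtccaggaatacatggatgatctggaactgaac
CCL20 A_11_P0000020105: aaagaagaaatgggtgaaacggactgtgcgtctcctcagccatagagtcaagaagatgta
CCL8 A_11_P0000020106: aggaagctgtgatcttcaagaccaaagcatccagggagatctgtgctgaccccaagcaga

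Each array held 45220 spots, 1417 of them controls. Of the other spots, between 57.9% and 65.7% were well above background in the CMT-U27 channels, and 0 were saturated. Before normalization the co-culture channel gained on the single culture with brightness: from the dimmest to the brightest of 5 equal groups of spots, the median log2 ratio went from -0.47 to 1.27 on replicate 1 and from -2.55 to -0.64 on replicate 2. Loess normalization takes most of such a slope out, but some dependence on brightness stayed. After it the median of the mean ratio was -0.002 in the dimmest 20% of tested probes. It was 0.08 from the 60th to the 80th percentile of brightness and -0.20 in the brightest 1%. The median of all genes, set beside the lists below, is not matched to a list in brightness. With the offset that was added before taking logarithms, the ratios of most tested probes were close to 0. Of 28692 tested probes, 81.9% lay within 0.2 log2 units of 0 on both CMT-U27 arrays. That share is partly set by the processing, since the offset pulls the ratios of dim probes toward 0. In the dimmest 20% of tested probes the median signal was 166, offset included. Above background in CMT-U27 were 26385 of the 28692. Across all tested probes Pearson's r between the arrays was 0.05 (Spearman's rho -0.01), a description over probes that share their arrays.

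No gene of CMT-U27 passed the test over all probes. With limma and Benjamini-Hochberg adjustment, 0 of 28692 probes (0%) had an adjusted p under 0.05, and the smallest adjusted p was 0.147, that of SAA1. Without adjustment, p was under 0.05 for 928 probes (3.23%), 663 of them above 0 (2.31%) and 265 below (0.924%), and for 423 of 10542 tested genes (4.01%), 323 above 0 (3.06%) and 100 below (0.949%). The adjusted count was 12 without background correction, all above 0, and 17 without replicate 1, of which 15 were below 0. With median centring in place of loess, which leaves the slope with brightness in the ratios, it was 17343, of which 17025 were above 0 and 318 below, and the median of all tested genes was 0.91. Above 0.5 on both arrays stood 16 genes (0.152%), and below -0.5 on both stood 0 genes (0%), while 5 genes were beyond 0.5 with opposite signs. Beyond 1, 6 genes stood above on both arrays, 0 below on both and 0 with opposite signs. Those 6 were SAA1, CCL2, CCL4, CCL20, RND1 and CCL8, that is an acute-phase protein, 4 CC chemokines and a small GTPase. By the software's ratio, which scatters more at dim spots, 79 genes stood above 0.5 on both arrays, 24 below -0.5 and 242 beyond it with opposite signs, and beyond 1 the counts were 21, 4 and 49.

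**Figure D1:**
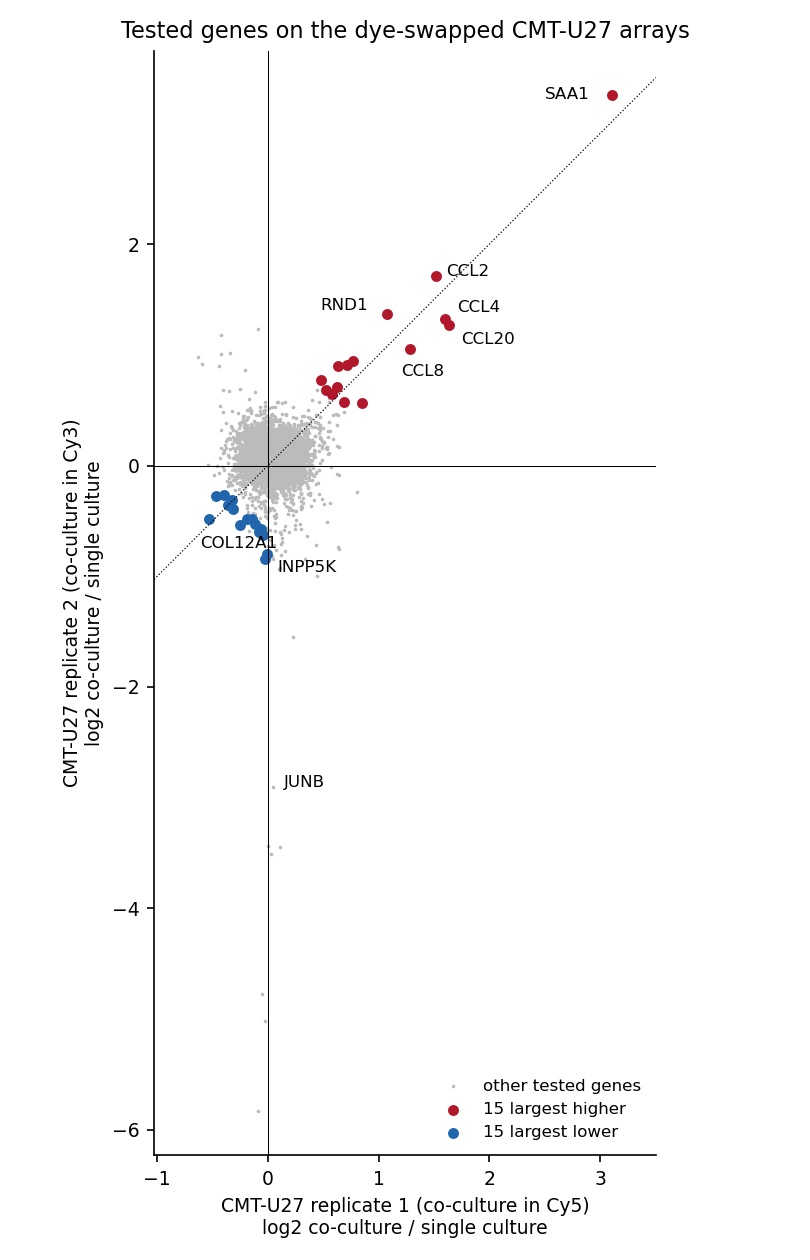
Log2 ratio of co-culture over single culture for every tested gene (brightest probe), CMT-U27 replicate 1 on the horizontal axis and replicate 2 on the vertical axis; the dotted line marks equal ratios. SAA1 at 3.10 and 3.35, the 4 CC chemokine genes and RND1 stand above 1 on both arrays, and JUNB (0.05 and -2.91) is among 8 genes below -1 on replicate 2 alone.

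SAA1 had the largest ratio in this processing, while by the scanner software's ratio, which has no offset, CCL4 (3.98) and CCL20 (3.74) exceeded it (3.29 and 3.52 on the arrays). Its normalised signal, which includes an offset of 50, was 10661 in co-culture against 1240 in single culture on replicate 1, and 16658 against 1637 on replicate 2. Both co-culture values lay far above both single-culture values. The log2 ratios were 3.10 and 3.35, a mean of 3.23 ± 0.17 (SD, n = 2 arrays) or 9.36-fold (limma adjusted p = 0.147). SLPI, a secreted protease inhibitor of mucosal surfaces, had signals of 1135 against 665 and 1462 against 760.3, with log2 ratios of 0.77 and 0.94. PI3 encodes elafin, a related elastase inhibitor, and stood at 0.55 and 0.58 by its brightest probe and at 1.80 and 1.77 by its other probe. Among the 10 tested genes of acute-phase and epithelial defence, 6 were above 0 on both arrays and 1 below, where 41.7% of all genes were above and 10.8% below. At an unadjusted p under 0.05 there were 3 above 0, namely SAA1, SLPI and PI3, where 3.06% of all genes were above and 0.949% below. The median over the 10 was 0.11, against 0.03 over all tested genes. The same shares of all genes belong beside the counts of every list below. LTF (lactoferrin, an iron-binding milk protein) had ratios of 0.13 and 0.28 and S100A9 ratios of -0.07 and -0.09.

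Of the CC chemokines, CCL2, a monocyte attractant, was the brightest. Its signal was 11173 in co-culture and 3899 in single culture on replicate 1, and 13673 and 4170 on replicate 2. The log2 ratios of 1.52 and 1.71 gave a mean of 1.62 ± 0.14 (SD, n = 2 arrays), or 3.07-fold, at an adjusted p of 0.49 in limma. CCL4, which attracts macrophages and T cells, was dim in single culture, with signals of 605 against 200.2 and 767 against 306, and ratios of 1.60 and 1.33. CCL20, the ligand of CCR6, had 637 against 206 and 732 against 304, with ratios of 1.63 and 1.27. CCL8, a further monocyte attractant, had 901 against 371 and 1003 against 484, with ratios of 1.28 and 1.05. In all 4 genes both co-culture signals exceeded both single-culture signals. CCL7, a neighbour of CCL2 in the genome, stood at 0.35 and 0.25, and CCL22 at -0.04 and -0.15. Over the 11 tested CC chemokine genes and receptors, 7 were above 0 on both arrays, 1 below, and 5 had an unadjusted p under 0.05, all above 0, with a median of 0.11.

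Ratios of CXC chemokines and receptors lay below those of the 4 genes above with the offset, but not by the software's ratio, where CXCL10 (3.02) exceeded CCL2 (1.64). CXCL10, an interferon-induced T cell attractant, had signals of 323 against 180 and 383 against 259, with ratios of 0.85 and 0.57. IL8 (CXCL8) had signals of 1049 against 716 and 1215 against 796, with ratios of 0.55 and 0.61. CXCL16 stood at 0.31 and 0.30 and the receptor CXCR4 at 0.32 and 0.20. Those 4 had an unadjusted p under 0.05 among 10 tested members, 5 of which were above 0 on both arrays and 3 below. Their median was 0.07, and 0.12 with median centring, where that of all genes was 0.91. ACKR3, a scavenging chemokine receptor, stood at -0.28 and -0.11.

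Genes of the NF-kB module itself had the highest median among the 36 lists in this processing, but not in all others. By the software's ratio the CC chemokine list had 1.08 and the NF-kB list 0.21, without background correction 0.46 and 0.19, and with detection asked of all channels 0.73 and 0.22. The CC chemokine list was also higher without replicate 1 (0.25 against 0.17), and MHC class I genes had the highest median with a loess span of 0.1 (0.17), with median centring (1.56) and without replicate 2 (0.25). Of 19 tested subunits and feedback inhibitors, 14 were above 0 on both arrays and 0 below on both, where all genes had 41.7% and 10.8%. At an unadjusted p under 0.05 there were 8 above 0 and 0 below, where all genes had 3.06% and 0.949%. The median was 0.22. NFKBIA, which encodes IkB-alpha, had signals of 2168 against 1343 and 2355 against 1580, with ratios of 0.69 and 0.58, a mean of 0.63 ± 0.08 (SD, n = 2 arrays). The anti-apoptotic BIRC3 stood at 0.46 and 0.30, the nuclear IkB protein gene NFKBIZ at 0.40 and 0.21, and the deubiquitinase gene TNFAIP3 (A20) at 0.28 and 0.21. Of the subunit genes, NFKB2 stood at 0.33 and 0.27, NFKB1 at 0.19 and 0.34 and RELA at 0.13 and 0.33. CHUK, a kinase subunit upstream of IkB, had ratios of -0.03 and 0.04.

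Among 16 tested cytokines and cytokine-induced adhesion genes, 12 were above 0 on both arrays and 0 below on both, and 5 were above 0 at an unadjusted p under 0.05. Their median was 0.16, but with median centring it fell short of that of all genes (0.63 against 0.91). ICAM1, an adhesion receptor for leukocytes, had signals of 901 against 683 and 1320 against 873, with ratios of 0.40 and 0.60. IRF1, a transcription factor downstream of interferon-gamma and NF-kB, stood at 0.45 and 0.34. SOD2, a mitochondrial superoxide dismutase, stood at 0.17 and 0.33, TNFSF10 (TRAIL) at 0.16 and 0.30, and TLR2 at 0.19 and 0.21. The cytokine genes as such had ratios near 0 in TNF (0.02 and -0.01) and IL18 (-0.09 and 0.01), and IL6 was not above the filter on dim probes and was not tested. Of 14 genes of the IL6 family and STAT3 signalling, 0 had an unadjusted p under 0.05, and STAT3 stood at -0.10 and 0.29.

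Antigen presentation genes had medians above that of all genes in both classes. This held for class II in 13 of 14 alternative processings and for class I in 14 of 14. Several of these processings leave the CMT-U27 ratios as they were. With median centring the class II median minus that of all genes was -0.08. Of 13 tested genes of MHC class II and its transactivator, 9 were above 0 on both arrays and 1 below, where all genes had 41.7% and 10.8%. An unadjusted p under 0.05 was found in 4, all above 0, where all genes had 3.06% above 0. The median was 0.16. The gene listed as HLA-DRB1, the canine DLA-DRB1, had signals of 1054 against 735 and 1397 against 871 by its brightest probe, with ratios of 0.52 and 0.68. CD74, the invariant chain that guards class II molecules, stood at 0.62 and 0.36, CIITA at 0.47 and 0.44 and DLA-DQB1 at 0.43 and 0.39. Of 16 genes of class I loading and the immunoproteasome, 11 were above 0 on both arrays and 0 below, 6 had an unadjusted p under 0.05, and the median was 0.15. DLA-12 stood at 0.59 and 0.46, DLA88 at 0.36 and 0.44, the immunoproteasome subunits PSMB9 at 0.43 and 0.46 and PSMB10 at 0.31 and 0.45, and the peptide transporter subunit TAP2 at 0.28 and 0.31. The DLA genes have near-identical copies, so single ratios within the family are uncertain. The 27 tested genes of the constitutive proteasome had a median of 0.02, with 10 above 0 on both arrays and 4 below. Interferon-stimulated genes had a lower median, 0.05 over 23 tested genes. Among them were IFI35 at 0.40 and 0.23 above 0 and IRF9 at -0.08 and -0.60 below 0 at an unadjusted p under 0.05, and OASL at 0.18 and 0.17. A second, dimmer IRF9 probe had 0.08 and 0.07.

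**Figure D2:**
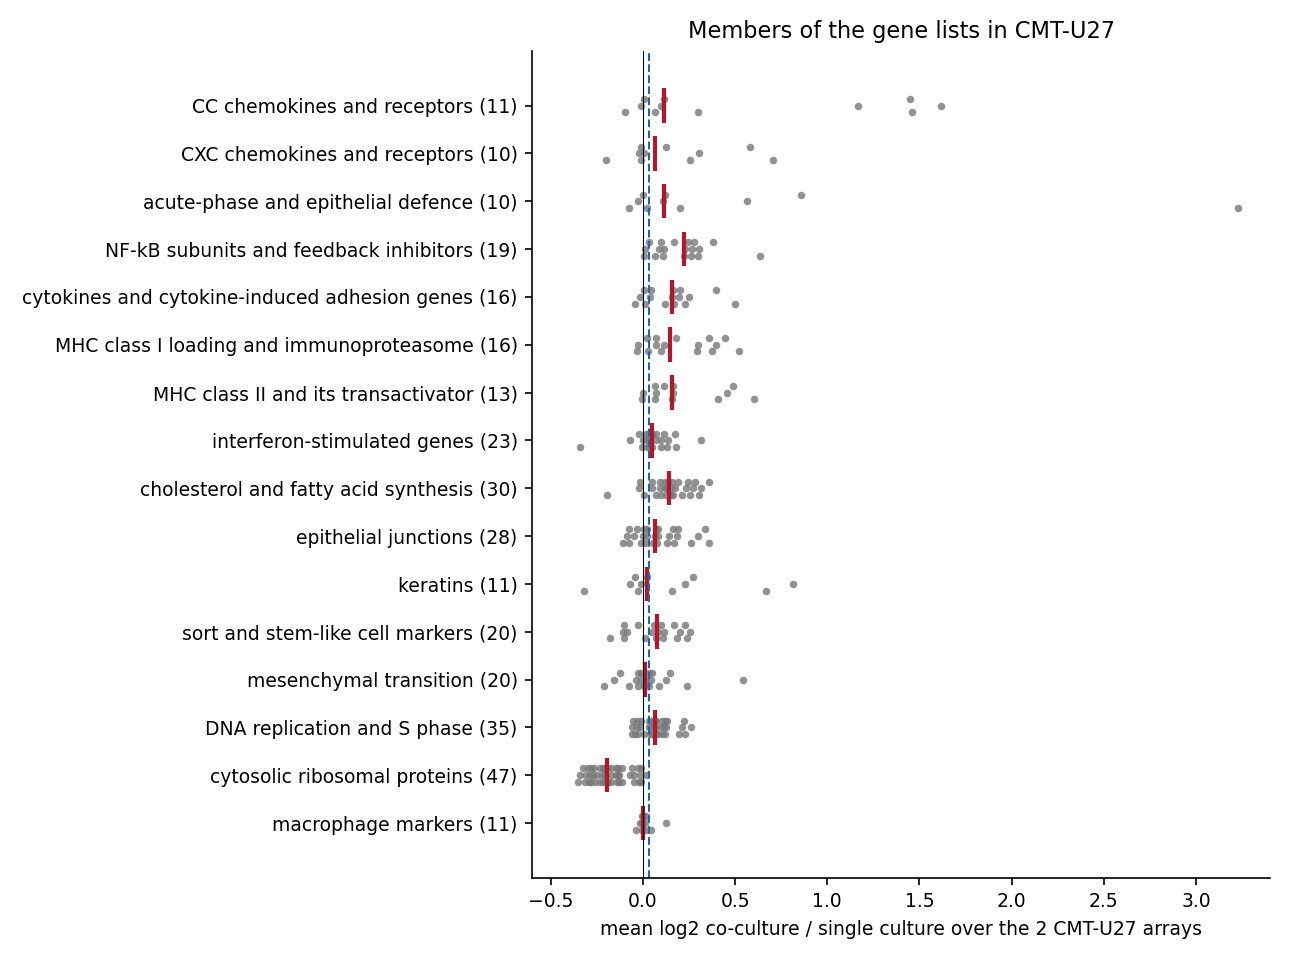
Mean log2 ratio over the 2 CMT-U27 arrays for each tested member of 16 gene lists (number of tested members in parentheses); red bars are list medians and the dashed line is the median of all tested genes, 0.03. The NF-kB list has a median of 0.22 with 0 members below 0 on both arrays, while the chemokine and acute-phase lists are spread out by a few members such as SAA1 at 3.23.

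The remaining genes among the 15 largest positive ratios were of mixed function. RND1, a small GTPase that loosens actin and cell adhesion, had signals of 1120 against 530 and 1463 against 565, with ratios of 1.08 and 1.37. KRT15 and KRT13 encode keratins of stratified epithelium, and stood at 0.71 and 0.91 (signals of 8299 against 5056 and 10493 against 5575) and at 0.63 and 0.71. C30H15orf48, the canine counterpart of human C15orf48, stood at 0.63 and 0.90. SLC6A12, a betaine and GABA transporter, had ratios of 0.48 and 0.77. TNFRSF14 (HVEM), a receptor of the TNF family, stood at 0.58 and 0.65. None of the 15 genes lay among the brightest 2% of probes (0 of 15), and their ratios differed by more than 0.25 between the arrays in 6 of 15 cases.

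**Figure D3:**
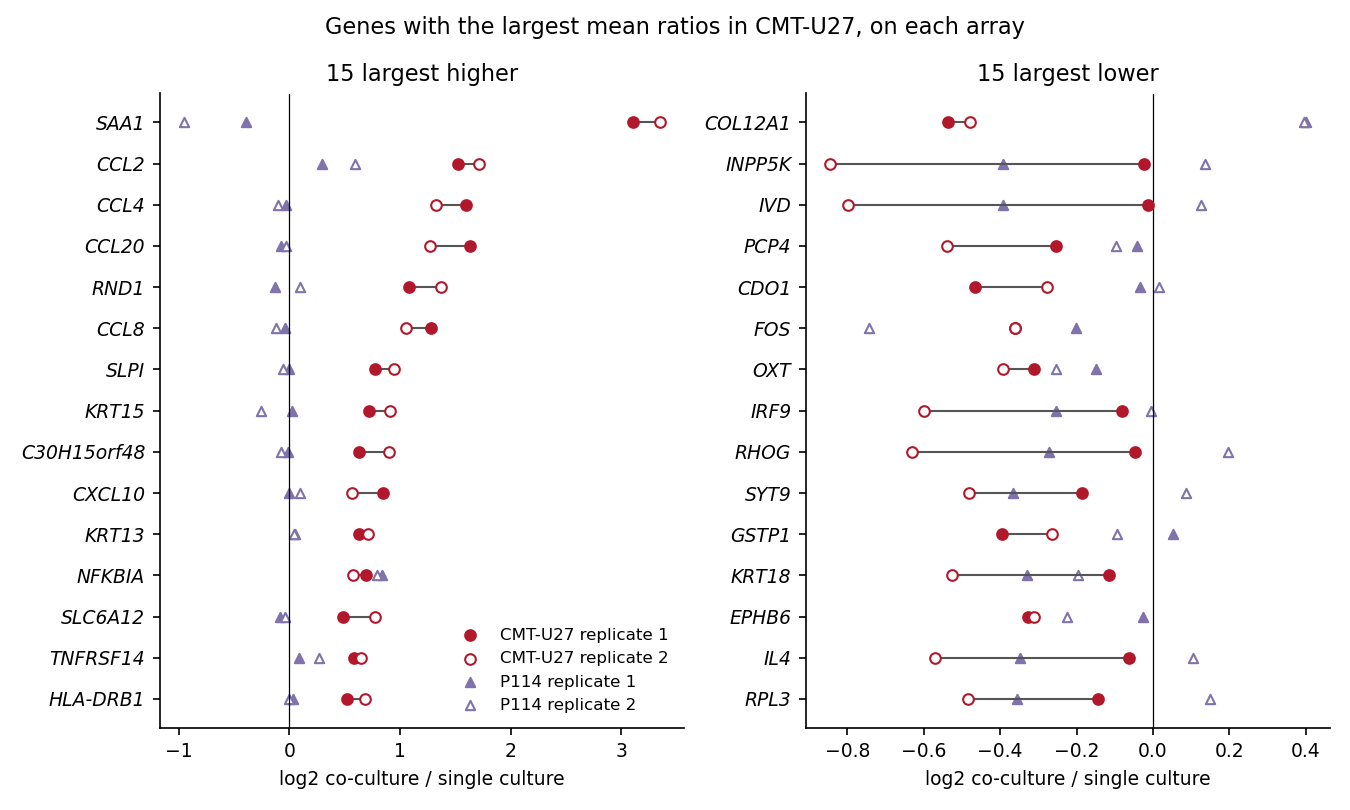
Log2 ratios of co-culture over single culture on each array for the 15 genes with the largest positive and the 15 with the largest negative mean in CMT-U27 (circles, joined by a line) and the same genes in P114 (triangles). The genes on the left run from SAA1 at 3.10 and 3.35 down to HLA-DRB1 at 0.52 and 0.68; on the right the arrays lie close together for FOS (-0.36 and -0.36) and far apart for INPP5K (-0.02 and -0.85) and IVD (-0.01 and -0.80).

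The offset of 50 that was added before taking logarithms pulls the ratios of dim genes toward 0. The scanner software's own ratio, which has no such offset, gave CCL4 as 4.19 and 3.77, CCL20 as 3.58 and 3.89 and CXCL10 as 2.96 and 3.07. For these 3 genes it was over 1.5 times the ratio above, and for the bright SAA1 (3.29 and 3.52) and CCL2 (1.59 and 1.68) it was nearly the same. By that ratio CIITA stood at 1.28 and 1.23, DLA-DQB1 at 1.39 and 1.67, CCL7 at 1.05 and 1.11 and TNFRSF14 at 0.93 and 1.07. Taking the 9473 genes well above background in all 4 CMT-U27 channels, 33 were above 0.5 on both arrays by the software's ratio, 11 below -0.5 and 46 opposite, and beyond 1 the counts were 11, 2 and 0. The pair below were PRDM6 (-1.46 and -2.04) and SLC14A1 (-1.05 and -1.29), named after their values were seen, which stood at -0.21 and -0.21 and at -0.15 and -0.11 with the offset. Some dim genes were detected on the co-culture side alone. CCL5, a T cell and monocyte attractant, and DIO1, a thyroid hormone deiodinase, chosen in the same way, exceeded background clearly in co-culture on 2 of 2 arrays and in single culture on 0 of 2. With the offset they had ratios of 0.11 and 0.12 and of 0.12 and 0.06, and since their single-culture spots did not pass that threshold no fold is given. How many of all genes were detected in only 1 culture, in either direction, was not counted. Over all spots other than controls, 65.7% in co-culture and 57.9% in single culture were well above background on replicate 1. On replicate 2 the shares were 60.9% and 64.5%.

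Several of the higher genes had more than 1 tested probe, and the probes disagreed by source and strand, which coincide here. For the 15 genes, 28 probes were tested. Of these, 24 were designed on transcript models and had a median log2 ratio of 0.74. Their strand was taken as the gene's strand, so they lie on it by definition. The other 4 were designed on expressed sequence tags or tentative consensus sequences, and had a median of 0.20. All 4 lay opposite to the nearest transcript-model probe, so strand and source cannot be told apart. The SAA1 probe A_11_P051191 shown above had ratios of 2.66 and 2.18, whereas A_11_P143758, which holds 56 of its bases as the reverse complement, had 0.80 and 0.66. The other opposite-strand probes had 0.31 and 0.14 for SAA1 (A_11_P142418), 0.22 and 0.12 for CCL2 and -0.04 and 0.04 for CXCL10. A further transcript-model probe, A_11_P055261, gave SAA1 ratios of 2.45 and 2.06. It and A_11_P051191 share at most 4 consecutive bases with A_11_P0000025562, whose ratios were 3.10 and 3.35, so the height of SAA1 did not rest on a single stretch of sequence. SAA1 probes were placed at separate positions of chromosome 21, and near-identical SAA genes cannot be told apart by them. Among genes with transcript-model probes only, both SLPI probes and both C30H15orf48 probes stood between 0.63 and 0.94 on each array. Some transcript-model probes of a gene also disagreed with each other. The second TNFRSF14 probe had 0.06 and 0.01, and the 4 IL8 probes had means from 0.10 to 0.58. Of the further HLA-DRB1 probes, A_11_P055246 had 0.55 and 0.49 and A_11_P0000020227 had 0.15 and 0.04.

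**Figure D4:**
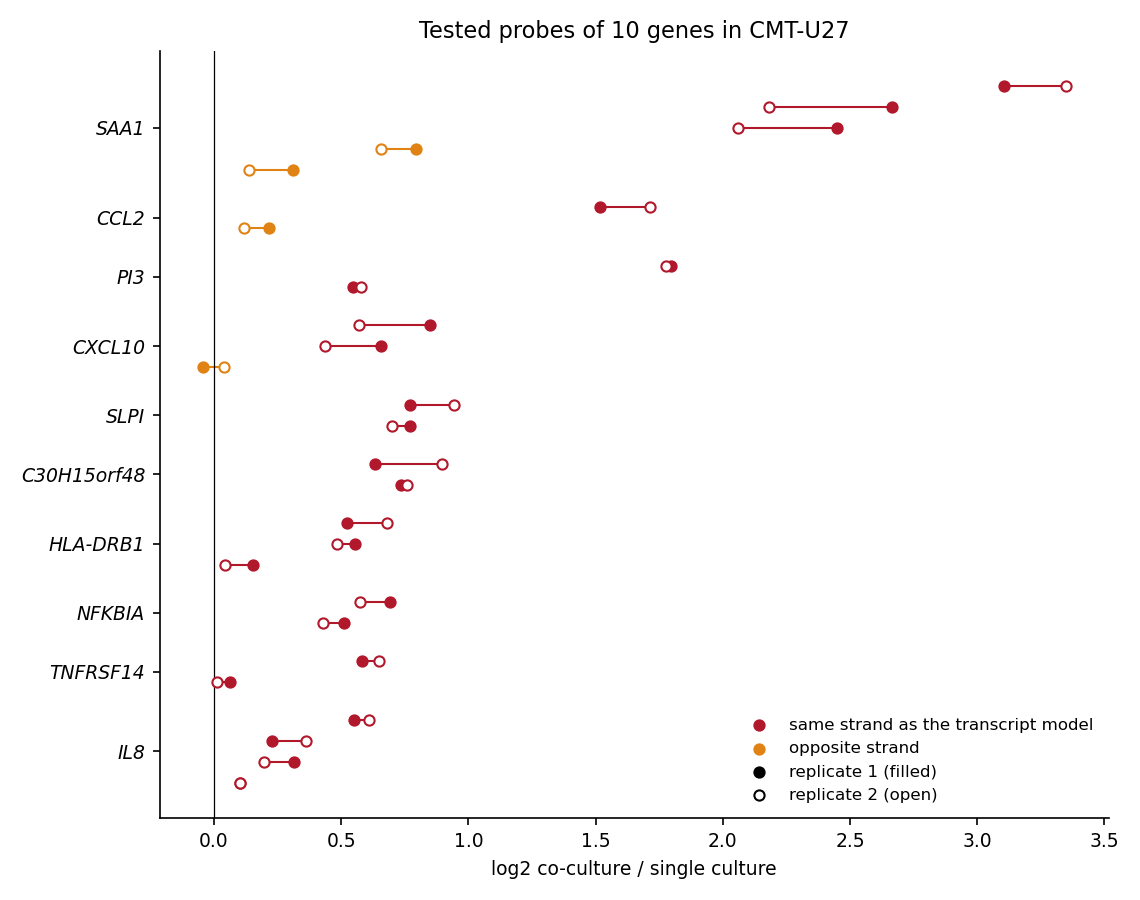
Log2 ratio of co-culture over single culture for each tested probe of 10 genes in CMT-U27, filled circles for replicate 1 and open circles for replicate 2; colour gives the strand relative to the gene's transcript-model probes. The 4 opposite-strand probes of SAA1, CCL2 and CXCL10 stand between -0.04 and 0.80, below every transcript-model probe of the same gene. They are also the only ones not designed on transcript models.

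Lower ratios were smaller and many rested on replicate 2, where the co-culture was in Cy3. COL12A1, a collagen that sits on the surface of fibrils, had signals of 1840 in co-culture against 2668 in single culture on replicate 1 and 2202 against 3070 on replicate 2. Its log2 ratios were -0.54 and -0.48, and its 4 probes had means from -0.51 to -0.17. CDO1, which degrades cysteine, stood at -0.47 and -0.28, the calmodulin regulator PCP4 at -0.25 and -0.54, the immediate early transcription factor FOS at -0.36 and -0.36, and GSTP1, a glutathione transferase, at -0.40 and -0.26. Of the 15 largest negative ratios, 11 belonged to the brightest 2% of probes, and over the 15 the median was -0.19 on replicate 1 and -0.48 on replicate 2. IVD, INPP5K, RHOG, IRF9 and IL4 were between -0.08 and -0.01 on replicate 1 and between -0.85 and -0.57 on replicate 2. In P114 they stood between -0.39 and -0.25 on replicate 1, with the co-culture in Cy3. On P114 replicate 2, with it in Cy5, they stood between -0.01 and 0.20. How far these values follow the dye was not tested. In limma the unadjusted p was 0.007 for INPP5K and 0.039 for FOS, whose CMT-U27 arrays were closer. With median centring all 15 were above 0 in CMT-U27, and COL12A1 (0.83) and PCP4 (0.50) alone stayed below the median of all genes, 0.91. The other probes of INPP5K, IVD, RHOG and IRF9 were far dimmer. For INPP5K the co-culture signal on replicate 1 was 110311 by the probe shown and 1407 by the next. The other probes of RHOG and IVD were above 0 on both arrays, and the second IRF9 probe had 0.08 and 0.07. Those of INPP5K had means of 0.11, -0.06 and -0.03. The IL4 probe was designed on an expressed sequence tag or tentative consensus sequence, so these low values belong to single bright probes.

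A gap between the arrays, with replicate 2 the lower, was also seen over all of the brightest probes. Below them a smaller gap went the other way. The medians on replicates 1 and 2 were 0.06 and 0.10 from the 60th to the 80th percentile of brightness. From the 80th to the 90th they were 0.04 and 0.10, and from the 90th to the 95th 0.01 and 0.07. Between the 95th and 98th percentile of brightness the medians were -0.03 and -0.02, and from the 98th to the 99th -0.03 and -0.16. In the brightest 1% of probes (287) the median was 0.02 on replicate 1 and -0.43 on replicate 2, and Pearson's r between the arrays was -0.26. Of the 287, 136 had an unadjusted p under 0.05 below 0 in limma, against 0.924% of all probes. That count does not mean that both arrays were low, since the dye term takes up a gap by dye that P114 shares. Without the dye term, 109 in place of 265 of all tested probes had an unadjusted p under 0.05 below 0. Most cytosolic ribosomal protein genes have probes in the brightest 2%. Of 47 tested, 0 were above 0 on both arrays and 21 below on both, and their median was -0.01 on replicate 1 and -0.36 on replicate 2; with median centring it was 1.44, above the 0.91 of all genes. The 41 in the brightest 2% held all 19 with an unadjusted p under 0.05 below 0, and 0 of the other 6 had one. RPS14 stood at 0.16 and -0.77 and RPL35 at 0.12 and -0.81. With a narrower loess span of 0.1, chosen after seeing the data, the means of INPP5K, IVD and RHOG came to -0.19, -0.18 and -0.16 and the ribosomal median to -0.04, while COL12A1 stood at -0.56, PCP4 at -0.46, CDO1 at -0.41 and FOS at -0.41. The part of probe brightness in the lower ratios was not tested beyond these values.

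**Figure D5:**
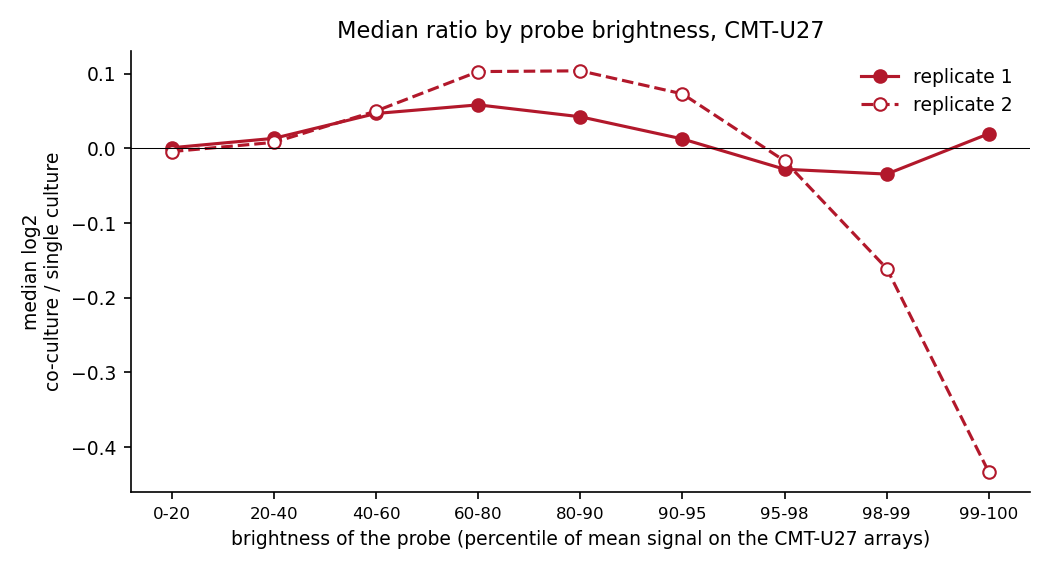
Median log2 ratio of co-culture over single culture by probe brightness (percentile of the mean signal on the CMT-U27 arrays), filled circles for replicate 1 and open circles for replicate 2. Up to the 95th percentile both arrays stand between -0.004 and 0.10, with replicate 2 the higher from the 60th percentile on. They part the other way in the brightest 1%, at 0.02 and -0.43.

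Outside the brightest 2% of probes the genes that were low on both arrays were few. Besides COL12A1, PCP4, CDO1 and FOS, the largest negative means included SORBS2, an actin-binding adaptor, at -0.31 and -0.30, the matricellular gene CYR61 at -0.36 and -0.19 and F3 (tissue factor, which starts blood clotting) at -0.21 and -0.26. Ratios beyond 1 on only 1 array occurred in 12 genes, all on replicate 2, with 8 below -1 and 4 above 1. The immediate early gene JUNB (0.05 and -2.91) and OTUB2 (-0.09 and -5.83) were among them, and on replicate 1 none of the 12 was further from 0 than 0.43.

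Cholesterol and fatty acid synthesis genes were above 0 in 24 of 30 tested members on both arrays and below in 3, where all genes had 41.7% and 10.8%. Their median was 0.14. Of the 30, 8 had an unadjusted p under 0.05 above 0 and 1 below, where all genes had 3.06% and 0.949%. HMGCS1, which makes the precursor of mevalonate, stood at 0.47 and 0.25, SQLE, which makes squalene epoxide, at 0.35 and 0.28, INSIG1, a sterol-sensing brake on the pathway, at 0.32 and 0.28 and FDFT1 (squalene synthase) at 0.20 and 0.37. SREBF1, which encodes the transcription factor of the fatty acid branch, stood at -0.21 and -0.19. Genes of DNA replication (19 of 35 above 0 on both arrays, 2 below, median 0.07) and of mitosis (16 of 29 above, 3 below, median 0.09) stood close to the median of all genes. POLE had ratios of 0.25 and 0.27 and CHAF1A of 0.20 and 0.23, while PTTG1 (securin) had -0.23 and -0.19. MYC stood at -0.13 and 0.29.

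Of the proteins used to sort the cells, EpCAM and CD44 have values here, and none is given for Sca1. EPCAM had signals of 26819 against 28951 and 27416 against 29512, with ratios of -0.11 and -0.11. CD44 had ratios of 0.05 and 0.05. The adhesion gene CDH1 (E-cadherin), not used in the sort, stood at -0.06 and -0.12. Of 20 tested sort and stem-like cell markers, 11 were above 0 on both arrays and 4 below, where all genes had 41.7% and 10.8%. Their median was 0.08. An unadjusted p under 0.05 above 0, found in 3.06% of all genes, was found in 4 of them. These were CXCR4, THY1 (0.21 and 0.27), the pluripotency factor SOX2 (0.25 and 0.14) and the drug efflux pump ABCB1 (0.25 and 0.13). Desmosome and junction genes (28 tested, 16 above 0 on both arrays, 4 below, median 0.07) included the desmosomal DSG3 at 0.51 and 0.21, PKP3 at 0.31 and 0.37 and DSC3 at 0.34 and 0.18. Over the 11 tested keratins the median was 0.02, with KRT15 and KRT13 above and KRT18, a keratin of simple epithelium with a bright probe, at -0.12 and -0.52. Mesenchymal transition genes had a median of 0.01 over 20, with 10 above 0 on both arrays and 7 below. VIM (vimentin) stood at 0.22 and 0.07 and FN1 (fibronectin) at 0.63 and 0.45. Among 25 collagens and matrix glycoproteins, COL1A2 (0.29 and 0.32) and FN1 had an unadjusted p under 0.05 above 0 and COL12A1 below.

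In the other lists single members stood out from medians near that of all genes. PTGES, a prostaglandin E synthase, stood at 0.38 and 0.37, and the tissue plasminogen activator PLAT at 0.33 and 0.34. ID3, a target of BMP signalling, had 0.61 and 0.47, the glycolytic PFKP 0.38 and 0.42, the angiogenic ephrin EFNA1 0.37 and 0.22 and the stress gene DDIT4 0.30 and 0.38. VEGFA stood at -0.07 and -0.16. The list of VEGF ligands, receptors and angiogenic regulators had a median of -0.00 over 20 tested genes, with 4 above 0 on both arrays and 5 below. Matrix metalloproteinases and TIMPs (0.04 over 19), Wnt genes (0.04 over 29), TGF-beta and BMP genes (0.04 over 33), EGF receptor genes (0.05 over 15), immediate early genes (0.01 over 25) and the respiratory chain (0.02 over 27) likewise had medians within 0.03 of that of all genes.

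Most macrophage markers were at background in both cultures. Of 34 marker genes listed, 32 were on the array, and 19 of them were not well above background in any of the 4 CMT-U27 channels, among them CSF1R, PTPRC, CD163, ITGAM, MRC1, TYROBP, AIF1 and C1QA. In co-culture 11 were well above background on replicate 1 and 7 on replicate 2, in single culture 4 and 8. Those in all 4 channels were 4, namely CD14, CD4, CD68 and ITGB2, with CD68 at 0.16 and 0.09 and CD14 at 0.07 and 0.02. The summed signal of the markers was 4930 in co-culture and 4818 in single culture on replicate 1, and 7121 and 7051 on replicate 2. These sums include the 19 markers at background, which add offset and background to both cultures. Their near-equality therefore says little about macrophage RNA. Of the 11 that passed the filter on dim probes, EMR1, CD86 and CD163 were among those well above background in 0 CMT-U27 channels, and with the offset such spots have ratios near 0 whatever their RNA, so the median of the 11 (0.00) says little. Markers of lymphocytes (median -0.00 over 12) and endothelium (0.02 over 7) were as close to 0, and those of fibroblasts had a median of 0.01 over 13, with COL1A2 and THY1 above. Macrophages also express CCL2, CCL4, CCL8 and the class II genes, and which cells gave these transcripts was not tested.

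P114 stem-like cells were measured on the same slide with the same contrast. SAA1 stood at -0.40 and -0.96 there, CCL4 at -0.03 and -0.10, CCL20 at -0.08 and -0.03, CCL8 at -0.04 and -0.13 and RND1 at -0.13 and 0.09. CCL4, CCL20, CXCL10 and KRT13 were well above background on only 1 of 2 P114 arrays in each culture, SLPI on 0 in co-culture and 1 in single culture and HLA-DRB1 on 0 in both. The offset pulls the P114 ratios of such dim spots toward 0. By the software's ratio CCL4 stood at 0.03 and -0.20 in P114, CCL20 at -0.21 and -0.20 and CXCL10 at 0.30 and 0. KRT13 stood at 0.40 and -0.86 and HLA-DRB1 at -0.12 and 1.49. Since these spots were near background in P114, no comparison of the lines is drawn from these genes. CCL2 stood at 0.30 and 0.59, and at 0.77 and 1.26 by the software's ratio, which makes the distance from CMT-U27 smaller. NFKBIA stood at 0.83 and 0.79. The difference between the lines was tested in the same fit, and 0 of 28692 probes (0%) had an adjusted p under 0.05 in limma, the smallest being 0.264 for SAA1 at a difference of 3.90 ± 0.12 (SE). At an unadjusted p under 0.05 the lines differed in 354 genes (3.36%), and since the genes named here were chosen for their CMT-U27 ratios, no count among them is read. NFKBIA had a difference of -0.18 ± 0.10 (SE). COL12A1 went the other way in P114, at 0.40 and 0.40, a difference of -0.91 ± 0.09 (SE), as did F3 (0.31 and 0.61). INSIG1 stood at -0.45 and -0.45 and HMGCS1 at -0.66 and -0.12 in P114, and the cholesterol list had a median of -0.11 there against 0.14 in CMT-U27, without a test of the lists. The class II list had a median of -0.00 in P114 and the NF-kB list 0.12. Since no difference passed the adjusted test, these remain values side by side.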

How the data were processed

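Members and gene lists were chosen with earlier results of these data known. Per the file headers, the deposited scanner files hold linear intensity per spot with local background and flags of 0 or 1 (another unit, used as filters) from Agilent Feature Extraction 10.10.1.1; version 10.7.3.1 is given in the submitters' processing notes. Their log10 ratio is Cy5 over Cy3 per the file headers, and the deposited series-wide values hold the same log10 values. The labels name a labelling kit for miRNA, and cell culture replicates are not described further. Probes are placed on CanFam3.1; no genome was used here, and RefSeq names come from UU_Cfam_GSD_1.0 (12323 of 13465 symbols found).

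Mean intensities were corrected with normexp (offset 50), normalised by loess within arrays with control spots at weight 0, freed of marked spots (31 and 36 on the CMT-U27 arrays), averaged per probe and turned to co-culture over single culture. A probe was kept where a line and culture had both its spots well above background, leaving 28692 of 43603 after 40 were lost to a marked spot; 17206 had a symbol, for 10542 genes, each shown by its brightest probe. The 4 arrays were fitted in limma 3.58.1 (R 4.3.3, version 1.17.8 of data.table) with 1 coefficient for each line plus a dye term for each probe, leaving 1 residual and 2.76 prior degrees of freedom. The fit was tested on simulated data. The arrays share 1 slide, and the number of arrays limits precision. The 36 lists held 1009 genes, 842 on the array and 710 tested. Named genes were the 15 largest mean ratios per direction with the same sign on both arrays, unadjusted p under 0.05 and a gap under 1, up to 4 smallest p and the extremes of each list, and 17 fixed genes; MKI67 was not matched on the array. Figures used Python 3.11.15 and matplotlib 3.10.9. Alternatives are listed in the closing section.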

Additional observations from a re-analysis of the deposited data

How the results depend on the processing

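The count of CMT-U27 probes past an adjusted p of 0.05 in limma was 0 and stayed 0 with the scanner software's ratio, the series-wide values, dim probes kept, detection asked of every channel, outlier spots retained, the dye term dropped, CMT-U27 arrays alone and a loess span of 0.1, which was chosen after seeing the data. Without background correction it was 12, all above 0 (probes of CCL20, CCL4, CXCL10, PI3 and SAA1), and 1 for the difference from P114. With median centring in place of loess it was 17343, 17025 of them above 0, and 12448 for the difference; the median of all tested genes then moved to 0.91. Leaving out 1 array at a time gave 0 to 17 for CMT-U27 and 0 to 61 for the difference: 17 (15 below 0, among them JUNB and HAUS3) and 8 without CMT-U27 replicate 1, where the lone array is assumed to vary like the other line's, and 61 without P114 replicate 2. The 15 largest positive genes stayed above 0 and above the median of all genes in all 14 alternatives. They had been chosen for the same sign on both arrays, so leaving out a CMT-U27 array could not bring them below 0. With median centring the 15 largest negative genes were above 0, and of these COL12A1 and PCP4 alone stayed below that median. The NF-kB, class I, cholesterol, DNA replication, mitosis, integrin, junction and hypoxia lists kept medians above that of all genes in all 14 alternatives, while class II, cytokine and CC chemokine genes did so in 13. Dropping the dye term, fitting the CMT-U27 arrays alone or leaving out a P114 array does not alter a CMT-U27 ratio. The series-wide values equal the software's ratio. For genes and lists the 14 alternatives are therefore not 14 separate checks. No paired analysis was possible because replicate numbers follow the order of records and pair nothing between lines. Signal near background limits the dim genes, whose ratios the offset shrinks.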
